A study of Homo sapiens with 36 samples.

Results

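Messenger RNA of 10 Notch pathway genes was followed through 36 libraries of human breast cell lines, in 18 groups of 2. The genes are the receptors NOTCH1, NOTCH2 and NOTCH3, the ligands JAG1, JAG2 and DLL1, the sugar transferase LFNG, and the target genes HES1, HES4 and HEY1. They were chosen by name, with no measured value in the rule but with earlier results of these data known. All 10 have a row among the 60725 Ensembl genes of each table. The study asked how YAP and TAZ, the transcriptional co-activators at the end of the Hippo pathway, act with STAT3, with JUNB (a subunit of the AP-1 factor) and with the TEAD factors during transformation of breast cells. MCF-10A-ER-Src (ER-Src) is a non-transformed mammary epithelial line with a v-Src protein joined to the part of the estrogen receptor that binds hormone. Tamoxifen (TAM) activates this fusion, and ethanol (ETH) is the vehicle. ER-Src cells received a control siRNA (Ctrli) or siRNA pools against YAP (YAPi), TAZ (TAZi), STAT3 (STAT3i) or JUNB (JUNBi), each under ETH and under TAM. All ER-Src groups, controls included, carry the fusion gene. The labels name the Src inhibitor AZD0530 beside tamoxifen on every sample, and the hours of treatment behind each library are not given in the sources used here. MDA-MB-231, a triple-negative breast cancer line without the fusion, was profiled in 2 sets: Ctrli, YAPi, TAZi, YAPi_TAZi and TEADi in set 1, and Ctrli, JUNBi and STAT3i in set 2.

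Notch receptors sit in the membrane and are activated by Jagged or Delta-like ligands on a neighbouring cell. ADAM10 and then the gamma-secretase complex cut the bound receptor, and its intracellular domain enters the nucleus, where it joins the DNA-binding protein RBPJ and a Mastermind protein and switches on repressor genes of the HES and HEY families. LFNG adds a sugar to the receptor and changes which ligand it answers to. In the mammary gland the pathway is known for its part in the choice between luminal and basal cell fates.

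The promoters of HES1 and HES4 are shown because these were the most abundant of the 3 target genes, and HES1 fell in a pair of the knockdowns below. The sequences are from RefSeq (build GRCh38.p14), from 250 bases before to 50 after the gene start, 5′ to 3′ on the strand of the gene, HES1 at chr3:194135898-194136197 (plus strand) and HES4 at chr1:1000048-1000347 (minus strand). Capitals mark TGGGAA, core letters of the RBPJ site.
HES1: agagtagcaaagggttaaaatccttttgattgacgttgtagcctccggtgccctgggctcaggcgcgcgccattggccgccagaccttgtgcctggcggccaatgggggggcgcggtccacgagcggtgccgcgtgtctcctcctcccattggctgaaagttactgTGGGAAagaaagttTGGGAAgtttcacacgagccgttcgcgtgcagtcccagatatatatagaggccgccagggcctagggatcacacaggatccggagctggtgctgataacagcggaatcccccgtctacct
HES4: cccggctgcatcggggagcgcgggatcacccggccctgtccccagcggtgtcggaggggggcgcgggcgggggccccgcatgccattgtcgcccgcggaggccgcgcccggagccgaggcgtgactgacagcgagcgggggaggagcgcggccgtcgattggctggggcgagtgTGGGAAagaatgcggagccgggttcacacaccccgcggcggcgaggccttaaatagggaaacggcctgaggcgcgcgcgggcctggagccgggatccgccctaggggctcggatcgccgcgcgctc
The HES1 window held TGGGAA at 2 places, starting 84 and 70 bases before the gene start, and the HES4 window at 1 place, 76 bases before it. Both strands were searched in all 35116 promoters of the table, of which 24.0% held TGGGAA and 3.8% held it at least at 2 places. The table had promoters of 8 of the 10 members. LFNG had 2 windows with 1 match each, and the windows of NOTCH1, NOTCH2, NOTCH3, JAG1 and JAG2 held none. The AP-1 letters TGANTCA (7.71% of all promoters) and the TEAD letters GGAATG (14.0%) were in no member's window, and the STAT letters TTCNNNGAA (7.66%) were in that of NOTCH3 alone, so that no match overlapped another. A match or its absence describes these letters in these windows and says nothing of binding.

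The libraries were of different kinds, which sets what can be compared. ER-Src libraries held 6419720 to 19161700 expected counts and the set 2 libraries 7290499 to 18076158. The 8 set 1 knockdown libraries were shallow, with 1411304 to 2784605, beside 13456784 and 13534560 in their controls. Of all TPM, protein-coding genes took 20.2% to 28.9% in ER-Src, 94.0% to 94.3% in set 2, and in set 1 20.0% to 37.9% under knockdown against 94.4% and 94.5% in Ctrli. The 8 knockdown libraries of set 1 were themselves of 2 kinds: replicates 1 held 20.0% to 23.2% and replicates 2 36.9% to 37.9%, and the length RSEM took off for the fragment was 48.0 bases in the former and 74.6 in the latter. The set 1 knockdowns and their controls thus differ in library kind, and the knockdown and the library kind cannot be told apart there. The length taken off for the fragment also split ER-Src, at 49.5 bases in the Ctrli, YAPi and TAZi libraries and 49.0 in those of STAT3i and JUNBi. Any difference that goes with this length cannot be told apart from the STAT3i and JUNBi knockdowns. Levels are given as coding TPM, the deposited TPM rescaled so that protein-coding genes sum to 1000000 in each library. Group means of the summed level of marker lists were 8470 to 18600 in ER-Src for 8 basal epithelial genes, and 83.0 in the set 1 controls, 52.8 to 119 in the set 1 knockdowns and 113 to 140 in set 2. For 5 mesenchymal genes they were 1380 to 1860, 3460, 2690 to 3860 and 1550 to 2250 in the same order. For 4 luminal genes, of which ESR1 is 1, they were 398 to 751, 3.18, 3.59 to 10.0 and 2.63 to 3.49. For 4 leukocyte and endothelial genes they were 2.83 at most. KRT5, a basal keratin, was at 4620 to 10500 in ER-Src. It was at 0 in the set 1 controls and in set 2 and at 14.2 to 24.8 in the set 1 knockdowns, and ESR1, whose sequence the fusion carries, was at 392 to 746 in ER-Src, 0.0318 in the set 1 controls and 1.14 to 6.48 in the set 1 knockdowns. The part of these transcripts in the set 1 results was not tested. The targeted gene was lower in both libraries of its knockdown than in both controls in all 8 ER-Src comparisons (log2 fold change -2.66 to -1.16) and in all 6 MDA-MB-231 checks of YAP1, WWTR1 (TAZ), STAT3 and JUNB (-4.9 to -2.04). Of these, 7 and 5 were called. JUNB in JUNBi under ETH missed the threshold (-1.16 ± 0.39, adjusted p = 0.064, mean normalized counts 283 against 624), and STAT3 in set 2 had no adjusted p (-2.41 ± 0.32). In TEADi, TEAD1 to TEAD4 were called lower against the controls of the other library kind. TEAD1, TEAD2 and TEAD4 were lower in both TEADi libraries than in all other set 1 libraries. TEAD3 was not, at 65 and 38.7 in TEADi, 51 to 75.4 in YAPi, TAZi and YAPi_TAZi, and 159 and 145 in Ctrli, so it does not check the TEADi label. A bulk sample cannot tell fewer cells of a type from less RNA per cell.

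Levels were compared between genes per length, in coding TPM. In ER-Src, NOTCH2 was the most abundant receptor, with 22.9 to 43.7 over the 20 libraries (median 33.5), against 0.803 to 6.75 for NOTCH1 (median 2.33) and 0 to 2.89 for NOTCH3 (median 1.06), and its range did not overlap those of the other two. JAG1 (10.2 to 29.9, median 17.9) and JAG2 (4.74 to 27.6, median 11.2) overlapped in level, and DLL1 stayed at 0.314 to 2.39 (median 0.764). HES1 (11.5 to 37.8, median 20.5) and HES4 (10.7 to 83.6, median 25.9) overlapped as well, while HEY1 was at 0.212 to 3.09 (median 1.2) and LFNG at 0.297 to 6.66 (median 1.44). DLL1, HEY1, NOTCH3 and LFNG rested on few reads in these libraries: 6 to 66 for DLL1, 2 to 21 for HEY1, 1 to 62 for NOTCH3 and 3 to 80 for LFNG. The DLL1 locus overlaps FAM120B on the opposite strand, and JAG1, NOTCH1 and NOTCH2 each overlap a long non-coding RNA there. As the strand setting of the counting is not stated, reads from the opposite strands cannot be told apart. DESeq2 called DLL1, HEY1 and HES4 in none of the comparisons below.

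**Figure D1:**
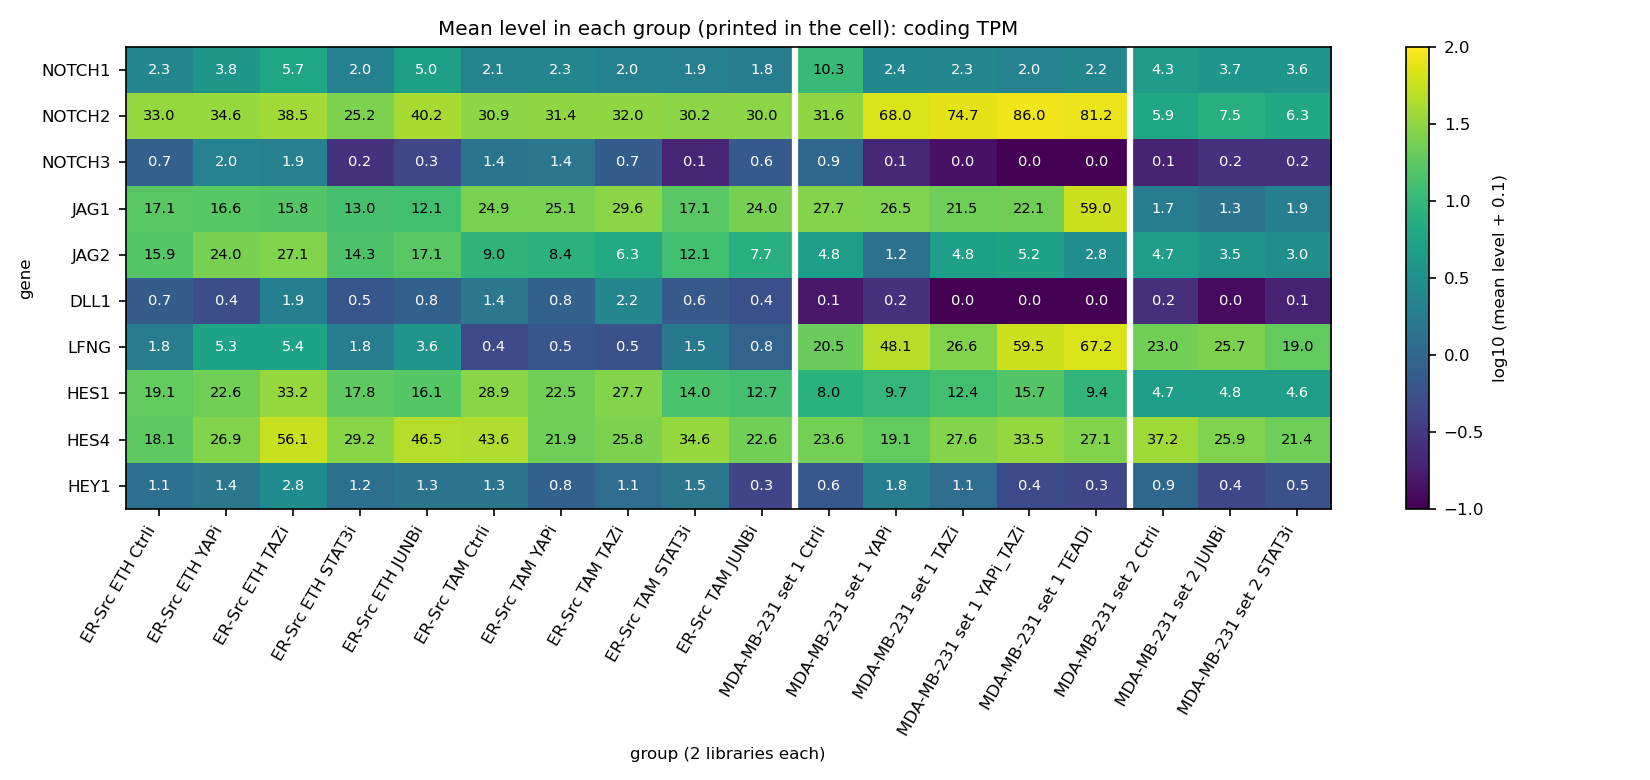
Mean level of the 10 members (rows) in the 18 groups (columns, 2 libraries each), in coding TPM, with the colour on a log10 scale and the value printed in each cell. NOTCH2 is at 25.2 to 40.2 in the ER-Src groups, and LFNG is at 0.4 to 5.4 there and at 19.0 to 67.2 in the MDA-MB-231 groups, whose libraries also differ in kind from those of ER-Src.

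In MDA-MB-231 the order of the members differed between the 2 control groups. The highest means were those of NOTCH2 (31.6), JAG1 (27.7) and HES4 (23.6) in set 1. In set 2 they were those of HES4 (37.2), LFNG (23.0) and NOTCH2 (5.88). LFNG was at 18.7 and 22.4 in the set 1 controls and at 17.9 to 26.1 over the 6 set 2 libraries, beside 6.66 at most in ER-Src, a comparison in which the line and the library kind cannot be told apart. In the set 1 knockdowns, with a protein-coding share nearer to that of ER-Src, its group means were 26.6 to 67.2. DLL1 had at most 2 reads in each of the 2 set 1 controls and at most 5 in the set 2 libraries. The control libraries of the 2 sets, which share the line and the siRNA label, differed from each other: JAG1 was at 27.4 and 28.0 in set 1 and at 1.62 and 1.83 in set 2, and NOTCH2 at a mean of 31.6 in set 1 and 5.88 in set 2. Of the 10242 protein-coding genes with a mean of at least 5 in either control group, 30.6% were at least 4-fold higher in set 1, and the median gene was higher there by 1.19 on the log2 scale, so levels were tested within a set only. JAG1, with a log2 ratio of 3.93, stood above 97.6% of these genes, and NOTCH1 (1.24) stood near their median.

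TAM against ETH in Ctrli cells asks what the treatment that activates v-Src does to the pathway with no factor knocked down. No ER-Src group lacks the fusion, so v-Src activation and the compounds themselves cannot be told apart. JAG1 rose and no other member was called. Its normalized counts (counts divided by the library's size factor) were 797 and 688 under TAM and 343 and 345 under ETH, so the groups did not overlap, and the log2 fold change was 1.13 ± 0.19 (SE, n = 2 per group, DESeq2 adjusted p = 7.1e-08). JAG1 lies on chromosome 20 (GRCh38, 10637684 to 10673999, minus strand). The background was 6.21% of 15724 tested genes called, or 4.62% in the upward direction, and 1 of the 10 tested members was. Among the ligands JAG2 was at 204 and 233 under TAM against 323 and 364 under ETH (log2 fold change -0.64 ± 0.25, adjusted p = 0.088), and DLL1 had 24 and 18 reads against 7 and 18. The receptors NOTCH1 (-0.01 ± 0.32) and NOTCH2 (0.31 ± 0.14) and the targets HES1 (0.61 ± 0.26) and HES4 (1.1 ± 0.82) were not called, nor were the scarce NOTCH3 (-0.27 ± 1.1) and HEY1 (-0.40 ± 1.0). The call of JAG1 was lost without Ctrli TAM replicate 1 (1.00, adjusted p = 0.024). It was also lost with offsets from the deposited effective lengths (0.67, adjusted p = 0.038), which for JAG1 ran from 2581 to 4844 bases between ER-Src libraries. The effective length is a mean over the isoforms of a gene, weighted by the reads RSEM assigned to each.

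The siRNA groups give the TAM contrast again, each under its own siRNA. The average over all 5 of them was tested in a fit over the 20 libraries, a comparison added after the values had been seen. Here 14.0% of 19101 tested genes were called, and 4 of the 10 members were. JAG1 rose (log2 fold change 0.77 ± 0.05, adjusted p = 2.4e-44), while JAG2 (-1.15 ± 0.15, adjusted p = 2.2e-12), LFNG (-2.14 ± 0.30, adjusted p = 4.2e-11) and NOTCH1 (-0.74 ± 0.20, adjusted p = 0.0018) fell. Thus the pair of Jagged ligands moved in opposite directions. These SE measure the spread between libraries within groups, not that between siRNAs. Between the siRNA groups the log2 ratio of means ran from 0.21 to 1.11 for JAG1 and from -2.07 to -0.3 for JAG2. It ran from -3.58 to 0.19 for LFNG and from -1.44 to -0.02 for NOTCH1. By edgeR, NOTCH1 missed the threshold (adjusted p = 0.011) and the other 3 calls were kept. NOTCH2 (0.01 ± 0.08), HES1 (0.03 ± 0.11), HES4 (-0.15 ± 0.36), NOTCH3, DLL1 and HEY1 were not called.

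JAG1 was higher under TAM in all 5 siRNA groups, without overlap between the libraries in any of them. Under ETH the 10 libraries lay between 284 and 485 (median 344). Under TAM the 8 libraries other than STAT3i lay between 618 and 798, and the STAT3i libraries at 375 and 354. JAG2, on chromosome 14 (105140982 to 105168824, minus strand), was lower under TAM in all 5 groups, without overlap in 4: the 10 ETH libraries lay at 218 to 716 (median 452) and the 10 TAM libraries at 133 to 293 (median 185). The largest gap was in TAZi, with 523 and 716 under ETH and 163 and 133 under TAM, and STAT3i was the group that overlapped, with 218 and 404 against 213 and 293.

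LFNG, on chromosome 7 (2512529 to 2529177, plus strand), was at 22.4 and 26.5 under ETH and at 5.02 and 6.14 under TAM in Ctrli, a gap that Ctrli alone did not call (-2.13 ± 1.1, adjusted p = 0.28). The same order held in YAPi (47.3 and 66.4 against 7.32 and 7.14), TAZi (51.9 and 86.4 against 4.48 and 7.12) and JUNBi (23.3 and 60.3 against 5.96 and 12). In STAT3i it did not, with 16.1 and 22.6 under ETH and 15.1 and 29.0 under TAM. Outside STAT3i the TAM libraries held only 3 to 14 reads of LFNG each. Without the STAT3i libraries the averaged log2 fold changes were 0.90 for JAG1, -1.37 for JAG2, -2.72 for LFNG and -0.86 for NOTCH1, all 4 called. NOTCH1, on chromosome 9 (136494433 to 136546048, minus strand), ran from 79.6 to 369 under ETH and from 52.9 to 148 under TAM, with means of 144 under TAM and 147 under ETH in Ctrli and the largest ratio in JUNBi (89.5 against 243).

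**Figure D2:**
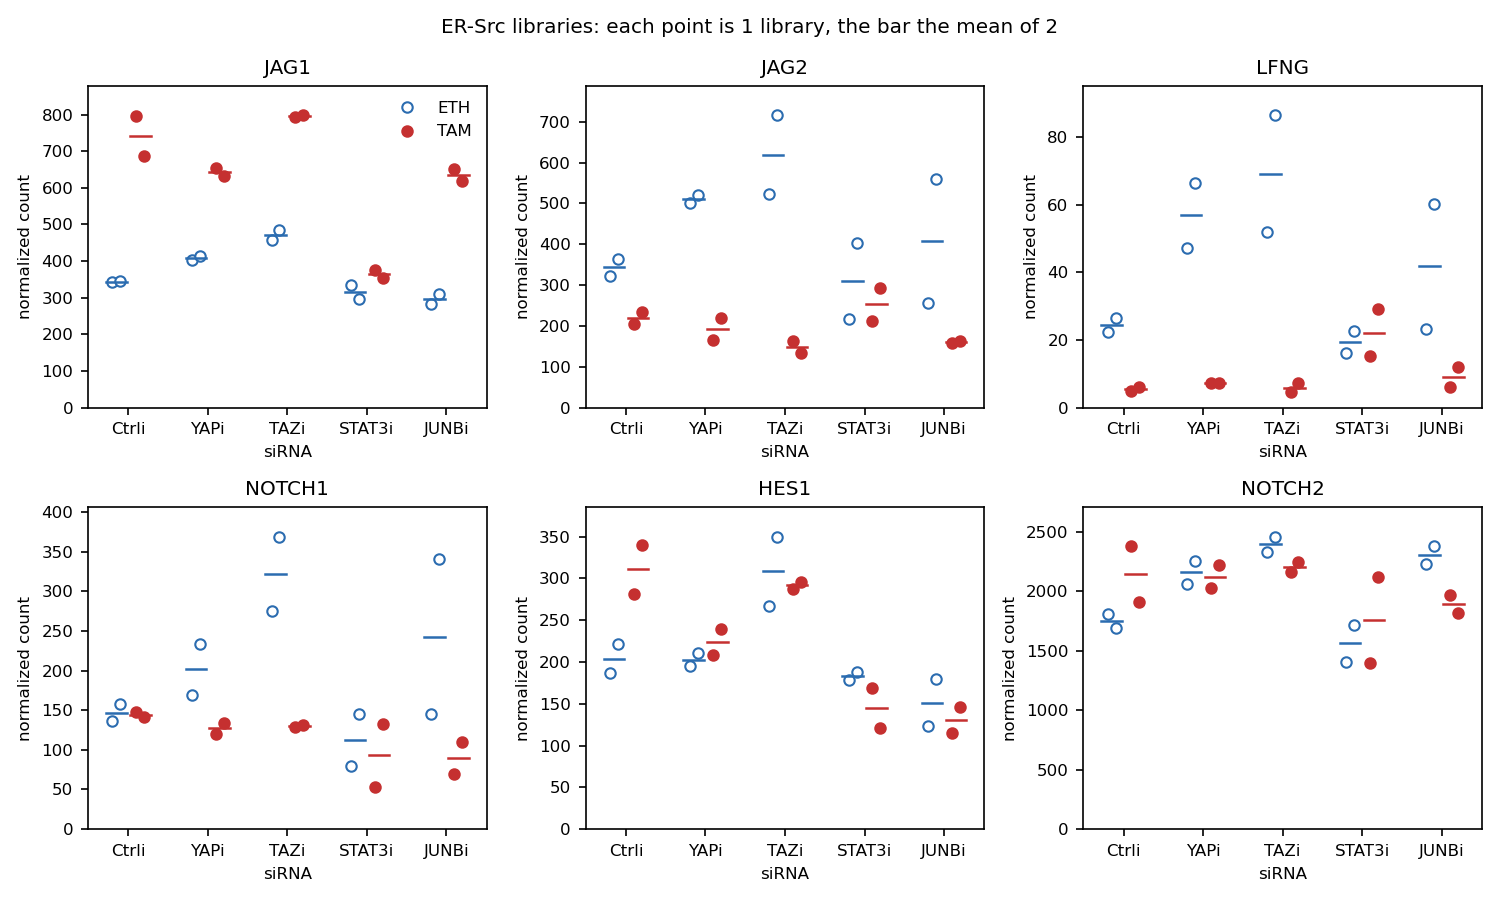
Normalized counts (y axis) of 6 members in the 20 ER-Src libraries by siRNA (x axis). Open blue points are ETH, filled red points TAM, each point 1 library, and bars are means of 2. JAG1 lies at 618 to 798 under TAM in all groups but STAT3i, where it lies at 354 and 375, within the ETH range of 284 to 485.

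The knockdowns under TAM ask which factors the pathway depends on in transforming cells. JAG1 and HES1 fell in STAT3i, HES1 fell in JUNBi, and no member was called in YAPi or TAZi. All 4 comparisons share the same 2 Ctrli libraries. JUNB itself was also low in STAT3i under TAM, at 644 and 665 against 2940 and 4120 in Ctrli, beside 693 and 1010 in JUNBi. The falls in STAT3i therefore cannot be assigned to STAT3 apart from JUNB, and the part of JUNB in them was not tested. JAG1 was at 375 and 354 in STAT3i against 797 and 688 in Ctrli, a log2 fold change of -1.01 ± 0.19 (adjusted p = 3.4e-06). In YAPi (654 and 631), TAZi (792 and 798) and JUNBi (650 and 618) it stayed closer to Ctrli, with 95% intervals of the log2 fold change of -0.54 to 0.13, -0.21 to 0.40 and -0.56 to 0.14. In STAT3i 2 of 9 tested members were called against 8.22% of all tested genes, or 4.88% in the downward direction. The call of JAG1 was lost without Ctrli TAM replicate 1 (-0.88, adjusted p = 0.059), without STAT3i TAM replicate 2 (-0.94, adjusted p = 0.01) and with effective length offsets (-0.61, adjusted p = 0.06).

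HES1, the best known repressor downstream of RBPJ and the gene with 2 marked sites above, lies on chromosome 3 (194136148 to 194138732, plus strand). It was at 282 and 340 in Ctrli under TAM, at 169 and 121 in STAT3i and at 115 and 146 in JUNBi. Both knockdowns lay wholly below the controls. The log2 fold change was -1.07 ± 0.28 in STAT3i (adjusted p = 0.0025) and -1.23 ± 0.28 in JUNBi (adjusted p = 0.00041), where 1 of 7 tested members was called against 6.9% of all tested genes (4.06% downward). The values in YAPi (209 and 240) and TAZi (288 and 296) gave -0.45 ± 0.25 and -0.08 ± 0.23. The STAT3i and JUNBi libraries are also those with 49.0 bases taken off for the fragment, against 49.5 in Ctrli, YAPi and TAZi. For HES1 the knockdowns and a difference that goes with this length cannot be told apart. Neither HES1 call survived leaving out any 1 of its 4 libraries, with log2 fold changes from -1.33 to -0.82 in STAT3i and from -1.40 to -1.06 in JUNBi.

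In YAPi under TAM 0 of 8 tested members were called by DESeq2 or by edgeR, against 10.7% of all tested genes, and 2 members had an unadjusted p under 0.05. These were HES4, at 104 and 129 against 148 and 358 in Ctrli (log2 fold change -1.10 ± 0.40, adjusted p = 0.039), and NOTCH3, with 29 and 62 reads against 12 and 5 (1.55 ± 0.77, adjusted p = 0.18). HES4 passed without Ctrli TAM replicate 1 (-1.60, adjusted p = 0.0097) and was at -0.32 without replicate 2 (adjusted p = 0.93). In TAZi 0 of 7 tested members were called by either tool, against 3.42% of all tested genes, with none at an unadjusted p under 0.05 by DESeq2 and 1 by edgeR. DLL1 was low in STAT3i, with 7 and 9 reads against 24 and 18 in Ctrli (log2 fold change -2.32 ± 0.85, adjusted p = 0.051), and edgeR called it (adjusted p = 0.0072).

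Under ETH, TAZi was the knockdown in which members were called, and all 3 rose. NOTCH1 was at 275 and 369 against 136 and 158 in Ctrli (log2 fold change 1.12 ± 0.27, adjusted p = 0.0012), JAG2 at 523 and 716 against 323 and 364 (0.84 ± 0.21, adjusted p = 0.002) and NOTCH2 at 2330 and 2460 against 1810 and 1690 (0.44 ± 0.12, adjusted p = 0.0044). In each of them the groups did not overlap. That is 3 of the 10 tested members against 5.24% of 14102 tested genes, or 2.6% in the upward direction. The median log2 fold change of the 10 was 0.98, beside -0.01 over all tested genes. HES1 (0.59 ± 0.26), LFNG (1.49 ± 0.57), HES4 (1.28 ± 0.84) and JAG1 (0.45 ± 0.20) were not called. None of the 3 calls was firm. NOTCH1 and NOTCH2 lost theirs in every one of the 4 leave-one-out fits, JAG2 in 3 of 4, and edgeR kept NOTCH1 alone (adjusted p = 0.0072). NOTCH2 shares sequence with the NOTCH2NL copies, of which NOTCH2NLA drew 24.7% to 52.9% as many counts as NOTCH2 in ER-Src, and with these counts added the call was lost (0.35, adjusted p = 0.02).

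The other ETH knockdowns held no call by DESeq2. In YAPi 0 of 10 members passed against 11.6% of all tested genes, 4 had an unadjusted p under 0.05, and edgeR called JAG2 (501 and 520 against 323 and 364, log2 fold change 0.56, adjusted p = 0.0094). In STAT3i and JUNBi 0 of 10 members passed by either tool and none had an unadjusted p under 0.05, against 0.189% and 2.8% of all tested genes. JUNB itself, at 153 and 413, was not called in JUNBi. Replicates of JUNBi lay far apart for NOTCH1 (145 and 341), JAG2 (257 and 559) and HES4 (73.6 and 422). They lay closer for NOTCH2 (2230 and 2380) and JAG1 (284 and 311). The absence of calls therefore does not show that these members were unchanged. JAG1 in STAT3i under ETH was at 334 and 296 against 343 and 345 (log2 fold change -0.12 ± 0.24), with a 95% interval of -0.59 to 0.36. HES1 was at 178 and 188 in STAT3i and at 123 and 180 in JUNBi against 187 and 221.

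**Figure D3:**
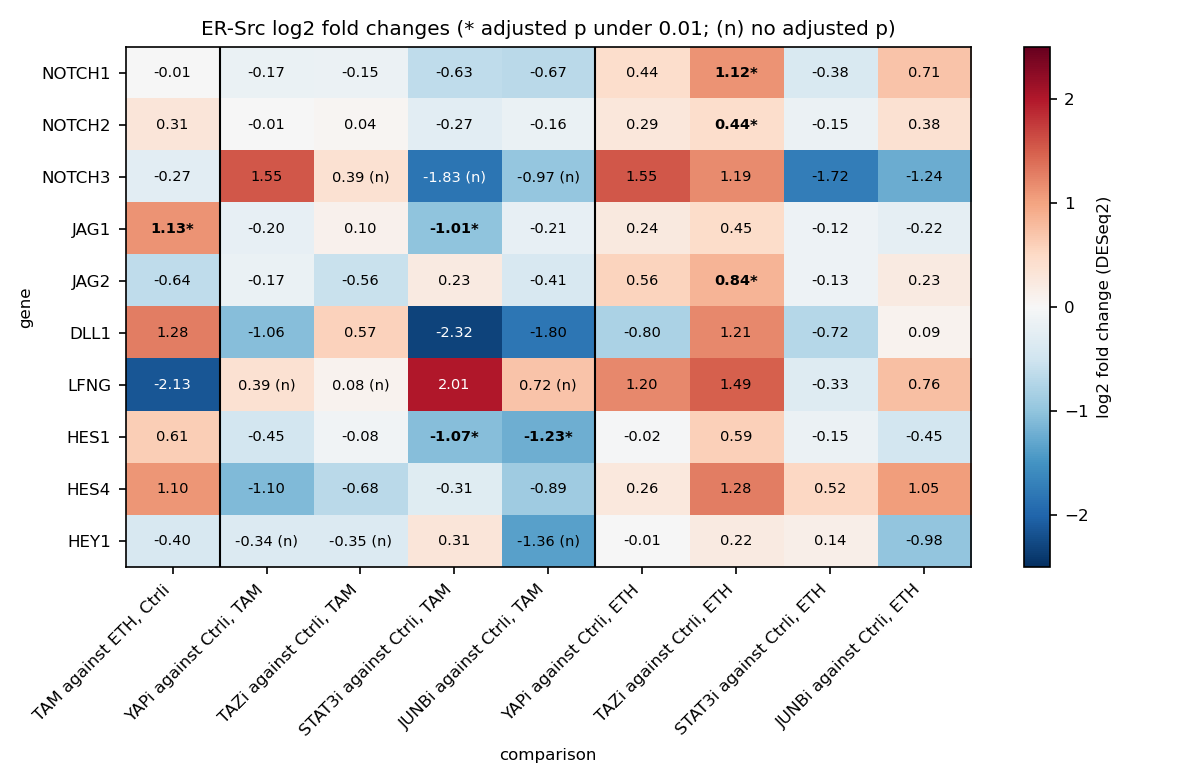
DESeq2 log2 fold changes (colour and printed value) of the 10 members (rows) in the TAM comparison of Ctrli and the 8 knockdown comparisons of ER-Src (columns). Asterisks mark adjusted p under 0.01, and (n) marks genes without an adjusted p. The 3 asterisks under TAM are on JAG1 and HES1 in STAT3i and HES1 in JUNBi, and the 3 under ETH on NOTCH1, NOTCH2 and JAG2 in TAZi.

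Whether a knockdown acted differently under TAM and ETH was tested as an interaction. By DESeq2 and by edgeR 0 members were called in any of the 4 knockdowns, against 0.498% (YAPi), 1.6% (TAZi), 1.34% (STAT3i) and 0.288% (JUNBi) of all tested genes. At an unadjusted p under 0.05 there were 3, 4, 2 and 2 members. JAG1 in STAT3i came nearest among those with an adjusted p, with an interaction of -0.91 ± 0.28 on the log2 scale (adjusted p = 0.05). It passed in the fit over all 10 groups (-0.91, adjusted p = 2.3e-05) and was -0.28 with effective length offsets (adjusted p = 0.97). In TAZi, JAG2 (-1.42 ± 0.33, unadjusted p = 1.5e-05) and NOTCH1 (-1.29 ± 0.39, unadjusted p = 0.00094) had no adjusted p, since DESeq2's independent filtering left 2 members in that test. With only genes at a mean count of at least 10 in the fit JAG2 passed (-1.43, adjusted p = 0.00089), and by edgeR it did not (adjusted p = 0.07). So the fall of HES1 in STAT3i and JUNBi and the rise of the 3 genes in TAZi were not shown to be limited to 1 treatment.

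HES1, the member called in at least 2 of the 8 ER-Src knockdown comparisons, was set beside the 6956 genes with a mean TPM of at least 5. BNC1 (Pearson r = 0.923) and GPRC5C (0.903) followed it most closely over the 10 group means of log2(TPM + 1). These r describe 10 points that share libraries and treatments.

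The rest of the pathway was read from 5 lists with 48 genes in all. TAM in Ctrli called 4 of 40 tested pathway genes (10.0%, against 6.21% of all tested genes), 3 higher and 1 lower: 2 of 4 further receptors and ligands, 2 of 12 genes of trafficking and ubiquitin, and none of 12 genes of cleavage and sugar transfer, of 8 of the nuclear complex or of 4 other targets. DLK2, a Notch ligand-like membrane protein, fell (log2 fold change -2.38 ± 0.43, adjusted p = 1.1e-06), and DNER, another atypical ligand (0.82 ± 0.12, adjusted p = 1.2e-09), and DTX4, a Deltex ubiquitin ligase (0.81 ± 0.22, adjusted p = 0.0051), rose. Averaged over the 5 siRNAs, TAM called 6 higher and 5 lower of 42 (26.2%, against 14.0%), among them DLK2 (-2.11 ± 0.17, adjusted p = 1.9e-35) and NEURL1B, a ubiquitin ligase that acts on ligands (-1.13 ± 0.15, adjusted p = 8.6e-13), both lower, and DTX3L, a Deltex-family ligase, higher (0.76 ± 0.06, adjusted p = 3.7e-40). Of the 8 genes of the nuclear complex, RBPJ and the MAML genes among them, none was called by DESeq2 in TAM against ETH or in any ER-Src knockdown, with 0 to 2 at an unadjusted p under 0.05 in each single comparison and 3 in the average over the 5 siRNAs. Under TAM, YAPi called 6 of 39 pathway genes (15.4%, against 10.7% of all tested genes), TAZi 1 of 39 (2.56% against 3.42%), STAT3i 4 of 39 (10.3% against 8.22%) and JUNBi 4 of 37 (10.8% against 6.9%), so these shares lay near the background. The largest changes were in HES2, a further HES repressor, which rose in YAPi under TAM (2.33 ± 0.27, adjusted p = 1.9e-15), in NEURL1B, which fell there (-1.85 ± 0.44, adjusted p = 0.00051), and in DLK2, which rose in STAT3i (1.73 ± 0.47, adjusted p = 0.0038). Under ETH the numbers were 4 of 39 in YAPi (10.3% against 11.6%), 3 of 39 in TAZi (7.69% against 5.24%), 0 of 42 in STAT3i (against 0.189%, and 0 also at an unadjusted p under 0.05) and 1 of 39 in JUNBi (2.56% against 2.8%). HES2 rose in YAPi (3.20 ± 0.28, adjusted p = 4.2e-27) and TAZi (1.53 ± 0.41, adjusted p = 0.0052), DTX4 rose in TAZi (1.04 ± 0.22, adjusted p = 8.3e-05), and APH1B, a gamma-secretase subunit, rose in JUNBi (1.71 ± 0.43, adjusted p = 0.0034). HES2 thus went up in both treatments when YAP was reduced, whereas the members HES1 and HES4 were not called in YAPi.

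In MDA-MB-231 set 1, each knockdown was compared with the controls across the difference in library kind. Here 17 calls fell on 5 members, with 4 of 9 tested members called in each of YAPi, TAZi and TEADi and 5 of 9 in YAPi_TAZi. But 24.4% (YAPi), 32.8% (TAZi), 35.5% (YAPi_TAZi) and 27.5% (TEADi) of all tested genes were called too, and the 4 comparisons share their controls. NOTCH1 was at 161 and 151 in the controls and at 15.3 to 34.3 in the 8 knockdown libraries, with a log2 fold change of -2.24 ± 0.32 for YAPi (adjusted p = 7.9e-11), -2.93 ± 0.30 for TAZi, -2.82 ± 0.30 for YAPi_TAZi and -2.78 ± 0.36 for TEADi. NOTCH2 went the other way, with 607 and 562 against 961 to 1250 (0.73 ± 0.12 in YAPi to 1.02 ± 0.11 in TEADi). JAG1, at 268 and 259 in the controls, was called lower with YAPi (160 and 161), TAZi (123 and 146) and YAPi_TAZi (120 and 109), but not with TEADi (208 and 244). LFNG was higher in YAPi (154 and 118), YAPi_TAZi (143 and 157) and TEADi (229 and 163) than in the controls (68.7 and 57.1). NOTCH3 had 69 and 61 reads in the controls against a single read for YAPi, a single read for TAZi and 0 for both YAPi_TAZi and TEADi, summed over the 2 libraries of each. Against a floor of 3 counts over the group this is at least 4.93-fold lower in YAPi_TAZi and at least 5.38-fold in TEADi, and the single reads give ratios of 18.2 (95% interval 3.21 to 724) in YAPi and 19.4 (3.42 to 771) in TAZi, counting error only. The NOTCH3 calls in TAZi, YAPi_TAZi and TEADi were each lost in all 4 leave-one-out fits, and the NOTCH1 calls were kept in all of them. With the controls of both sets pooled, 4 calls were left, NOTCH1 in all 4 knockdowns, and JAG1 in YAPi turned to 0.17. Effective length offsets turned JAG1 in TEADi to a call in the other direction (0.76, adjusted p = 0.001).

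**Figure D4:**
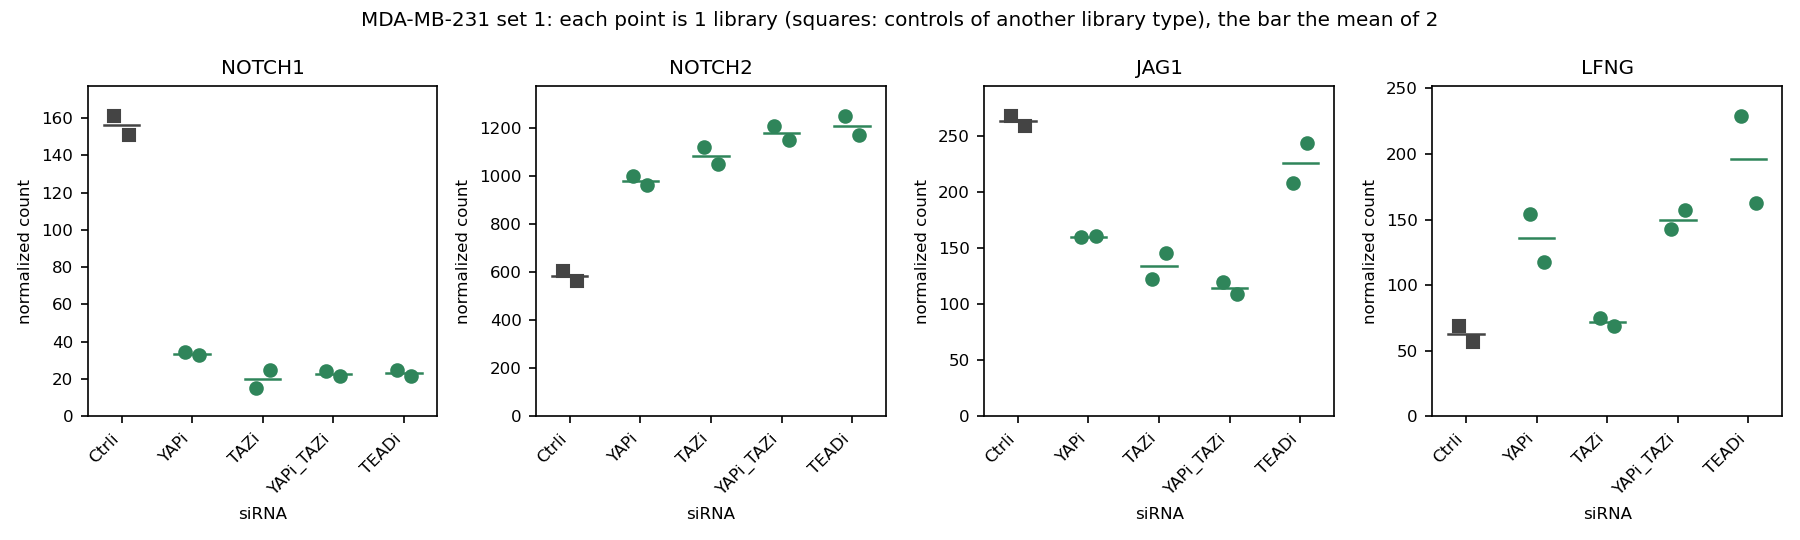
Normalized counts (y axis) of NOTCH1, NOTCH2, JAG1 and LFNG in the 10 libraries of MDA-MB-231 set 1 by siRNA (x axis). Squares are the 2 controls, of another library kind, circles the 8 knockdown libraries, and bars are means of 2. Among the circles, JAG1 is highest in TEADi (208 and 244) and LFNG lowest in TAZi (74.9 and 68.9).

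Comparing each knockdown with the mean of the other 3 leaves out the controls, and each knockdown then has 1 library of either kind, that of replicates 1 and that of replicates 2. LFNG was lower in TAZi (log2 difference -1.14 ± 0.24, adjusted p = 0.00011) and higher in TEADi (0.78 ± 0.22, adjusted p = 0.0064), and JAG1 was higher in TEADi (0.75 ± 0.20, adjusted p = 0.0025). These contrasts share the same libraries, so a low value in 1 knockdown raises the contrasts of the other 3. Calls of 1 gene in more than 1 knockdown, as for LFNG here and RBPJ below, are thus not independent. LFNG in TEADi (229 and 163) also lay above YAPi and YAPi_TAZi (118 to 157). The TAZi libraries held 74.9 and 68.9 normalized counts of LFNG, below all 6 others (118 to 229), and the TEADi libraries held more JAG1 than all 6 others (109 to 161). In TAZi 1 of 6 tested members was called (5.99% of all tested genes, 2.35% downward) and in TEADi 2 of 6 (7.89%, 3.94% upward). YAPi and YAPi_TAZi had no call by DESeq2 or edgeR, against 6.83% and 6.13% of all tested genes, with 1 member each at an unadjusted p under 0.05. Replicate numbers paired these libraries and go with the library kind. With the number as a block the 3 calls were kept (adjusted p = 6.9e-06 for LFNG in TAZi, 0.0012 for LFNG in TEADi and 0.00018 for JAG1 in TEADi), and NOTCH2 was also called in YAPi (-0.24, adjusted p = 0.0059), though the difference was small. JAG1 in YAPi_TAZi was at -0.58 ± 0.21 (adjusted p = 0.063) and passed by edgeR with the block (adjusted p = 0.0025). NOTCH1, at 9 to 25 reads per library, showed no call among the knockdowns. Each of the 3 calls was lost when either library of its knockdown was left out. In the pathway lists 2 of 27 tested genes were called in YAPi, 1 of 30 in TAZi, 0 of 30 in YAPi_TAZi and 2 of 30 in TEADi. RBPJ was higher in YAPi (0.87 ± 0.14, adjusted p = 1.5e-08) and lower in TAZi (-0.82 ± 0.14, adjusted p = 1e-06), KAT2B, an acetyltransferase of the nuclear complex, was higher in YAPi (1.17 ± 0.26, adjusted p = 0.00018), and MAML1 was lower in TEADi (-1.0 ± 0.25, adjusted p = 0.0017). Against the controls 15 of 40, 20 of 40, 23 of 42 and 15 of 41 pathway genes were called in YAPi, TAZi, YAPi_TAZi and TEADi. Of all tested genes 24.4%, 32.8%, 35.5% and 27.5% were called in the same comparisons. The called pathway genes included DTX2, a Deltex-family ligase, lower in YAPi_TAZi (-1.83 ± 0.30), and DNER, higher in TEADi (1.79 ± 0.39). The knockdown and the library kind cannot be told apart in these comparisons with the controls.

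In MDA-MB-231 set 2, JUNBi and STAT3i were compared with their own controls, all of 1 library kind, and no member was called by DESeq2 or edgeR, against 3.41% and 0.497% of all tested genes. DESeq2 gave 4 members an adjusted p in JUNBi and none in STAT3i, and 2 and 1 members had an unadjusted p under 0.05. HES4 was the lowest of these, at 166 and 196 in JUNBi (log2 fold change -0.88 ± 0.30, adjusted p = 0.044) and at 161 and 164 in STAT3i (-1.04 ± 0.32, unadjusted p = 0.00099) against 299 and 367 in the controls, without overlap. JAG2 was at 71.0 and 71.2 in JUNBi and 79.8 and 63.4 in STAT3i against 117 and 136, again without overlap (-0.83 ± 0.43 and -0.82 ± 0.46). JAG1 was at 101 and 94.0 in STAT3i and 85.4 and 109 in Ctrli, a log2 fold change of 0.00 with a 95% interval of -0.90 to 0.91. NOTCH1, the other member at an unadjusted p under 0.05 in JUNBi, was at 230 and 285 there against 314 and 471 (-0.61 ± 0.30, adjusted p = 0.21). LFNG was at 412 and 352 in JUNBi and 340 and 287 in STAT3i against 397 and 420, and NOTCH2 at 671 and 650 in JUNBi and 625 and 551 in STAT3i against 465 and 727. NOTCH3, HEY1 and DLL1 had at most 24 reads in any of these libraries. HES1 was at 67.1 and 45.8 in JUNBi and 54.7 and 64.5 in STAT3i against 84.1 and 47.5. Of the pathway lists 1 of 24 tested genes in JUNBi and 1 of 5 in STAT3i was called. MIB2, a ubiquitin ligase that acts on Notch ligands, was this gene in both, lower in JUNBi (-1.17 ± 0.23, adjusted p = 5.6e-05) and in STAT3i (-1.06 ± 0.23, adjusted p = 0.0015).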

How the data were processed

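RNA was profiled in 36 libraries of 2 human breast cell lines, 18 groups of 2, grouped by the sample labels. The labels name a TruSeq Ribo Profile kit for all of them. Per the study's methods the authors trimmed reads, aligned them with STAR to the GENCODE v30 transcriptome (up to 20 alignments a read) and quantified genes on hg38 with RSEM; the STAR and RSEM versions and the strand setting are not given in the sources used here. RSEM splits reads among copies by probability, so genes with near-identical copies such as NOTCH2 are uncertain.

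The deposited tables hold expected counts, TPM and effective length per gene and library, as the authors' RSEM run wrote them. No column belonged to another sample. Symbols and coordinates came from GENCODE v44 (93.1% of Ensembl genes matched) and promoters from RefSeq. Expected counts were rounded and tested with DESeq2 1.42.0 (R 4.3.3, Wald test, default size factors and independent filtering, Benjamini-Hochberg adjustment over all genes, called at an adjusted p under 0.01), each knockdown in its own fit as in the study's methods. Genes that independent filtering left without an adjusted p are given with the unadjusted p. Deposited TPM was rescaled to sum to 1000000 over protein-coding genes (coding TPM) because of the differing share of other RNA. Intervals are 1.96 SE at 95% confidence, and count ratios and the floor of 3 counts cover counting error only. edgeR 4.0.16 (quasi-likelihood, TMM), TMM size factors, a mean count of at least 10, effective length offsets, 1 fit over all groups, a replicate block, NOTCH2NLA counts added to NOTCH2, controls of both sets and leaving out each library were the alternatives. The scripts were tested on simulated data.

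All 10 members entered every fit, and those the text leaves out of a comparison were not called in it. Of 48 further pathway genes, named are up to 3 per family of comparisons with the largest absolute log2 fold change among those called at a mean normalized count of at least 50, and 2 genes most like a member called in at least 2 of the 8 ER-Src knockdown comparisons. One gene that this rule names is not reported here. Other pathway genes named beside these were chosen after their values were seen. The members and lists were chosen with earlier results of these data known. No label says that replicates came from separate cultures, so p-values measure the spread between these libraries, which may be technical. Replicate numbers were taken to pair the set 1 knockdowns, where the deviations of all 6 pairs of groups correlated at 0.378 to 0.418.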

Additional observations from a re-analysis of the deposited data

How the results depend on the processing

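Counts of called members moved by over 1.5 times under these settings. Effective length offsets took TAM against ETH in Ctrli from 1 call to 0 and the ETH knockdowns from 3 to 1. The fit over all groups gave 1 for the ETH knockdowns and 1 interaction in place of 0, and a mean count of at least 10 gave 1 interaction and 1 call in place of 3 among the set 1 knockdowns. TMM size factors gave 1 call there and edgeR with the replicate block 5. Pooling the controls of both sets took the set 1 knockdowns against Ctrli from 17 to 4. JAG1 reversed in set 1 in YAPi with the controls of both sets (0.17) and in TEADi with effective lengths (0.76). The cause was not tested.

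Leaving out 1 library gave 0 to 1 calls for TAM in Ctrli, 1 to 3 for the TAM knockdowns, 0 to 3 for the ETH knockdowns, 0 to 1 for the interactions, 9 to 17 for set 1 against Ctrli, 1 to 3 among the set 1 knockdowns and 0 for set 2. Where an arm keeps 1 library, that library is assumed to vary like the other group. Of the single values under leave-one-out, 943 kept their direction and side of the threshold, 52 lost and 4 gained a call, and under the other settings 1569 did, 49 lost, 14 gained and 2 reversed.

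In ER-Src no label pairs the libraries, and the main fits had no replicate term. Of 45 pairs of groups, deviations correlated at -0.225 to 0.614 and 32 were over 0.1. Pairs of ETH groups correlated at 0.112 to 0.614 and pairs of TAM groups at -0.225 to 0.257. A difference shared by replicate number is thus present under ETH, where NOTCH1 and JAG2 were higher in replicate 2 in every group. The replicate block gave 1 call for TAM in Ctrli, 2 for the TAM knockdowns (HES1 in STAT3i was lost, adjusted p = 0.042), 0 for the ETH knockdowns and 1 interaction (JAG1 in STAT3i, adjusted p = 0.0099). Among the set 1 knockdowns it gave 4 calls, and for set 1 against Ctrli 12, where controls and knockdowns did not deviate together (-0.035 to -0.02). For set 2 alone, no paired analysis was possible because its controls and knockdowns share no replicate numbers. Depth limits DLL1, NOTCH3 and HEY1 throughout, LFNG in ER-Src, and all members in the set 1 knockdowns.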
